A study of Mus musculus with 9 samples.

Results

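Regulatory T (Treg) cells lacking the acetyltransferase p300 were compared with Treg cells of control mice, gene by gene. The comparison took in every gene that the arrays read with a probe set of a single symbol, each represented by the probe set with the highest mean, and so covered 12393 genes, all those measured in the study, on 6 of its 9 arrays. The 3 p300-deleted samples carry the genotype label fl-p300/Foxp3cre and the 3 controls the label Foxp3cre control; the control samples are titled WT, and the design text also names them wild type. By the genotype label, though not by the name wild type, the controls carry the Cre allele as well. All mice were C57Bl/6. A magnet was used to separate CD4+CD25+ cells, and 100 ng of total RNA per sample was amplified and labelled with biotin. The 3 arrays of CBP-deleted Treg cells (fl-CBP/Foxp3cre) entered the estimate of the spread and served as a second comparison. The replicates are independent samples by the design text, which does not say whether a sample came from 1 animal or a pool; the tissue and age of the mice are not given in the sources used here.

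p300 and its close relative CBP transfer acetyl groups to histones and other proteins and act as coactivators at enhancers and promoters. Treg cells are CD4+ T cells that hold immune responses in check and depend on the transcription factor Foxp3, itself a protein that p300 acetylates. Because Cre is made from the Foxp3 locus, the deletion is directed to cells that express Foxp3, while other cells of a magnetically enriched fraction are expected to keep the gene. A transcript in such a fraction may therefore come from the Treg cells or from cells that accompany them. In bulk RNA a smaller number of cells of a type and less RNA per cell cannot be told apart, and this holds for every level given here.

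The array medians ran from 5.49 to 5.59 on the log2 scale. Arrays correlated at 0.990 to 0.994 among the controls, at 0.994 to 0.996 among the p300-deleted samples and at 0.987 to 0.993 between the groups. The first principal component of the 6 arrays held 41.5% of the variance and separated the groups. 18S ribosomal RNA read 5.82, 6.20 and 8.88 in control replicates 1, 2 and 3 and 7.88, 9.62 and 8.07 in the p300-deleted replicates, so that control replicate 3 lay among the p300-deleted arrays. For Gapdh the reading of the 3′ end exceeded that of the 5′ end by 0.20 to 0.60 in controls and by 0.06 to 0.17 in p300-deleted samples, without overlap, whereas for Actb these ranges overlapped (0.28 to 0.44 and 0.29 to 0.41). A fit that held the 18S level as well called 244 genes in place of 503; the part of the 3′ to 5′ readings in the results was not tested. Of 49 genes of unrelated tissues, 90% had levels under 5.56, and values under that level are not told from background here; 7025 of the 12393 genes were above it in at least 1 of the groups.

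The identity of the cells was checked first. Transcripts of the T cell receptor complex were high in all 6 arrays: Cd3e read 11.33 to 11.60 in controls and 11.58 to 11.74 in p300-deleted cells, and Cd3d 12.08 to 12.62 and 12.44 to 12.49. Cd8a, the marker of cytotoxic T cells, lay under the background level in every array (4.03 to 4.49). Il2ra, the gene of CD25, read 8.77 to 9.22 in controls and 9.22 to 9.33 in p300-deleted cells (difference 0.24, SE 0.12, limma adjusted p = 0.324). Ctla4, an inhibitory receptor of Treg cells, read 10.46 to 10.94 and 11.03 to 11.07 (difference 0.32, limma adjusted p = 0.124). Foxp3 read 9.75, 9.58 and 9.48 in the controls and 2.58, 3.08 and 3.19 in the p300-deleted samples (log2 fold change -6.65, SE 0.16, limma adjusted p = 4.66e-10). The p300-deleted arrays sat at background, as did the CBP-deleted ones (2.73, 2.91 and 2.97). A single probe set reads Foxp3. Neither its place in the transcript nor the make-up of the Cre allele is given in the sources used here, so a lost transcript and one altered where the probes lie cannot be told apart. The reading thus differed between samples whose labels all name the Cre allele, which puts in doubt whether the controls carry it in the same form. If they do not, loss of p300 and carriage of that allele cannot be told apart in any difference from control; the comparison with CBP-deleted cells does not share this limit. Crebbp, the gene of CBP, read 7.56, 7.67 and 7.36 in controls and 7.67, 7.48 and 7.53 in p300-deleted cells, with overlapping arrays (difference 0.03, limma adjusted p = 0.930). The transcript of p300 itself is not analysed here.

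The comparison addressed which transcripts of Treg cells differ when p300 is absent. At a limma adjusted p under 0.05, 503 genes changed (4.06% of those tested), of which 250 rose (2.02%) and 253 fell (2.04%). Of them 254 changed at least 1.5-fold (2.05%) and 79 at least 2-fold (0.637%). With array medians subtracted the split was 194 higher and 300 lower. Of 42 genes that rose at least 2-fold (0.339% of those tested), 24 belonged only to lists of other cell types than Treg cells (57.1%), 2 only to lists of T cell states, 3 to lists of general cell functions and 13 to no list. Of 37 genes that fell at least 2-fold (0.299%), 21 belonged to lists of general functions (56.8%), 3 to T cell states and 11 to no list. Among all genes, lists of other cell types alone held 2.36% and lists of general functions 4.10%. The lists say where a transcript is usually made and not which cell of the fraction made it. The median change over all genes was -0.02, and 44.9% had a higher mean; counts of list members called against control are to be read beside the 2.02% and 2.04% of all genes.

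The number of calls depended on single arrays. It was 65 without p300-deleted replicate 2, 231 without p300-deleted replicate 1 and 208 without control replicate 1; leaving out CBP-deleted replicate 1 or 2, which lowers the degrees of freedom of the spread, gave 300 and 264. Without control replicate 3 it was 854. The control and p300-deleted arrays did not overlap for any of the 503 genes, as they did not for 20.3% of all genes. A lack of overlap therefore adds no support of its own to a called gene named below. Of 53 counts of called members, 1 per list and direction and above 0 with all arrays, 35 became 0 without p300-deleted replicate 2.

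**Figure D1:**
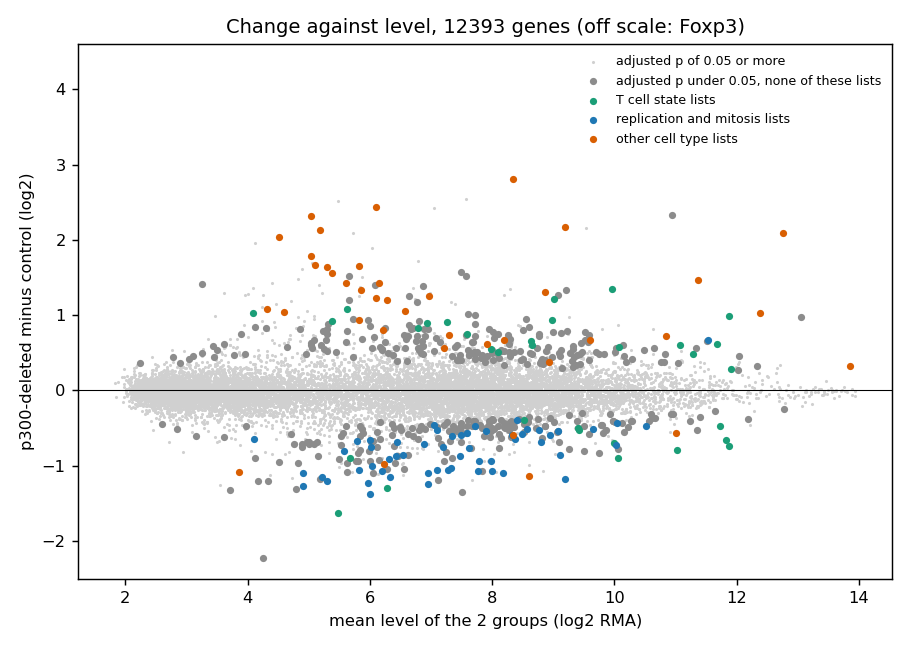
Difference between p300-deleted and control means (y axis, log2) against the mean level of both groups (x axis, log2 RMA), with 1 point per gene for 12393 genes. Coloured points passed a limma adjusted p of 0.05: genes of the replication and mitosis lists (blue) lie below 0 with 1 exception, and genes of other cell type lists (orange) make up most of the coloured points above 1, while T cell state genes are green and other called genes dark grey; Foxp3, at -6.65, is off the scale.

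Genes of the cell division machinery formed the main group that fell. As background, they are switched on together as a cell enters S phase and again before mitosis. Of 42 measured genes of DNA replication, 30 fell and 0 rose, with a median of -0.56, and 40 had a lower mean. Of 67 mitosis genes, 25 fell and 1 rose, with a median of -0.83, and 66 had a lower mean; the p300-deleted arrays lay under all controls for 49 of them, against 11.5% of all genes. Promoters of both groups are shown first, since each list was searched there for the element known from its kind of gene. Elements searched on both strands in the 250 bases before each RefSeq start (GRCm38.p6) were the CHR (TTTGAA), known from mitosis genes, and E2F sites (TTCCCGCC, TTTGGCGC or TTTCGCGC), known from replication genes. Printed are the last 150 bases before the start for the members that fell furthest among those with the element in this stretch, 3 of the mitosis list and 2 of the replication list, in gene orientation and with the element in capitals (TTCAAA is the CHR on the other strand). Promoters on 1 chromosome were not considered for printing. For a gene with several starts, the first listed start with the element was taken.

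Cep55: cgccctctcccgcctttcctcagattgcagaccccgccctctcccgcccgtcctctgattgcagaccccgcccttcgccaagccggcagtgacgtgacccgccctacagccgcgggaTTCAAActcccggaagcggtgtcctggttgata
Kif2c: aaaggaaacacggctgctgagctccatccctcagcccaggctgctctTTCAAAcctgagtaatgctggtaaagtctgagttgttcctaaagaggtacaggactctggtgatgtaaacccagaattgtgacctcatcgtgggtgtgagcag
Ccnf: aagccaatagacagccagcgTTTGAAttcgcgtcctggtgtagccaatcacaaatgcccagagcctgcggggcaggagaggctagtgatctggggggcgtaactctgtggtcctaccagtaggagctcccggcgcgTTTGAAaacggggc
Uhrf1: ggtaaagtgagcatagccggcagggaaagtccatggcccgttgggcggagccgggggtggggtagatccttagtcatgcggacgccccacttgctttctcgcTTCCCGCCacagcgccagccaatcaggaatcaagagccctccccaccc
Rrm1: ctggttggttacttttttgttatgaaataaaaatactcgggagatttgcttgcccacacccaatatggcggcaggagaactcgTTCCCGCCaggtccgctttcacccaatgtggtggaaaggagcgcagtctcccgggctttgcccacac

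These stretches lie at chr19:38054891-38055040, plus strand, for Cep55; chr4:117178773-117178922, minus strand, for Kif2c; chr17:24251410-24251559, minus strand, for Ccnf; chr17:56303187-56303336, plus strand, for Uhrf1; and chr7:102441545-102441694, plus strand, for Rrm1. The capitals begin 33 bases before the start in Cep55, 103 in Kif2c, 130 and 14 in Ccnf, 48 in Uhrf1 and 67 in Rrm1. Over the lists, the CHR was found in 42.4% of 59 promoters of 55 mitosis genes and in 35.0% of the 20 promoters of those that fell, against 11.5% of the 12566 promoters of all measured genes that have one. The E2F sites were found in 23.8% of 42 promoters of 35 replication genes and in 20.6% of the 34 of those that fell, against 3.87%. The other way round, the CHR was found in 9.52% of the replication promoters and the E2F sites in 6.78% of the mitosis promoters, and in 0 of the 20 of mitosis genes that fell. CCAAT, a box common in promoters of mitosis genes, was found in 69.5% of the mitosis and 52.4% of the replication promoters, against 34.7%. A match is a stretch of letters and was not measured as a bound site, and these shares belong to the lists as a whole, whether or not their members changed.

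Among replication genes, Rrm2, the small subunit of ribonucleotide reductase that makes deoxynucleotides, read 9.56, 9.38 and 10.40 in the controls and 8.99, 8.37 and 8.46 in the p300-deleted samples. Its groups did not overlap, and it fell 2.26-fold (log2 fold change -1.17, SE 0.23, limma adjusted p = 0.0212). Mcm3, a subunit of the helicase that opens DNA at origins, read 9.47, 9.40 and 9.73 against 8.76, 8.53 and 8.73 (log2 fold change -0.86, SE 0.11, limma adjusted p = 0.00272). Of the 5 probe sets of Mcm3, 4 were lower (range -0.86 to 0.09), and it did not pass with the mean of all probe sets. Of the other subunits of that helicase, picked out after their values were seen, Mcm2 (-0.51), Mcm5 (-0.64), Mcm6 (-0.44) and Mcm7 (-0.47) fell and Mcm4 did not pass (-0.35, adjusted p = 0.125). Ccne1, the cyclin that drives entry into S phase, read 6.73, 6.89 and 6.94 in controls and 6.10, 5.95 and 5.91 in p300-deleted cells, with a gap between the groups (log2 fold change -0.86, SE 0.11, limma adjusted p = 0.00290). Gins1, a partner of the helicase, read 6.82, 7.02 and 7.06 against 6.22, 5.83 and 6.30 (-0.85, SE 0.14). Uhrf1, which passes DNA methylation on to the new strand, read 8.05, 7.87 and 8.85 against 7.51, 7.18 and 7.28 (-0.94, SE 0.21), and Cdc6, a loader of the helicase, 6.52, 6.44 and 7.37 against 6.14, 5.77 and 5.67 (-0.92, SE 0.22). In Uhrf1 and Cdc6 control replicate 3 was the highest array by a wide margin. The remaining members that fell ran from -0.77 for Tk1, thymidine kinase, to -0.39 for Rpa2, part of the protein that binds single-stranded DNA. The 2 members with a higher mean were Pcna, the sliding clamp (0.20), and Rfc3, of its loader (0.18), and neither passed.

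Among mitosis genes, Aurkb, the kinase of the chromosomal passenger complex, read 6.53, 6.25 and 7.27 in the controls and 5.64, 4.98 and 5.32 in the p300-deleted samples, with a gap between the groups (log2 fold change -1.37, SE 0.24, limma adjusted p = 0.0117; 2 of 2 probe sets lower). Kif2c, a kinesin that takes apart microtubule ends at centromeres, read 6.34, 6.24 and 7.17 against 5.57, 5.16 and 5.33 and was lower in 4 of 4 probe sets (log2 fold change -1.23, SE 0.22, limma adjusted p = 0.0135). Its probe sets ran from -1.23 to -0.10, however, and it did not pass without less specific probe sets. The p300-deleted means of Aurkb and Kif2c were under the background level, as were all p300-deleted readings of Ccnf, and a fall there may be understated. Ccnf, cyclin F, read 5.68, 5.43 and 6.27 against 4.79, 4.48 and 4.66 (-1.15, SE 0.19). Cep55, which acts at the last cut between daughter cells, read 7.25, 7.17 and 8.31 against 6.73, 6.00 and 6.26 (-1.25, SE 0.28). The other of its 2 probe sets stood at -0.11, and Cep55 did not pass with the mean of all probe sets. Ttk, a kinase of the spindle checkpoint (-1.20, SE 0.26), and Nek2, a centrosome kinase (-1.26, SE 0.29), also fell, with p300-deleted means under the background level. Mki67, the gene of the proliferation antigen Ki-67, read 9.25, 8.70 and 10.13 against 8.78, 8.03 and 8.06, with 1 p300-deleted array above the lowest control, and did not pass (-1.07, SE 0.29, limma adjusted p = 0.0647). Smc4, a condensin subunit, was the exception and rose (0.67, SE 0.15), with 2 of its 3 probe sets of that sign.

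The mean log2 level of the 42 replication genes was 7.83, 7.82 and 8.19 in control replicates 1, 2 and 3, 7.49, 7.34 and 7.39 in the p300-deleted replicates and 8.08, 8.24 and 8.18 in the CBP-deleted ones. For the 67 mitosis genes these means were 7.24, 6.97 and 7.91, then 6.81, 6.40 and 6.46, then 7.50, 7.80 and 7.72. On both scores the p300-deleted arrays were the lowest 3 of the 9, and control replicate 3 was the highest control. The summed linear levels of the mitosis genes overlapped, however (15131 to 28306 in controls, 13138 to 16151 in p300-deleted samples), since p300-deleted replicate 1 exceeded control replicate 2. Tested directly against the CBP-deleted arrays, where 645 genes differed (5.2%, with 3.2% of all genes lower in p300-deleted cells), 37 replication genes and 61 mitosis genes were lower in p300-deleted cells and 0 were higher. Both tests use the same p300-deleted arrays. The count of replication genes that fell was 16, 5 and 15 without p300-deleted replicate 1, 2 or 3, 17 without control replicate 1 and 16 without CBP-deleted replicate 2. That of mitosis genes was 11 and 51 without control replicate 1 or 2, 1 and 8 without p300-deleted replicate 2 or 3, 13 without CBP-deleted replicate 2 and 43 with array medians subtracted.

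**Figure D2:**
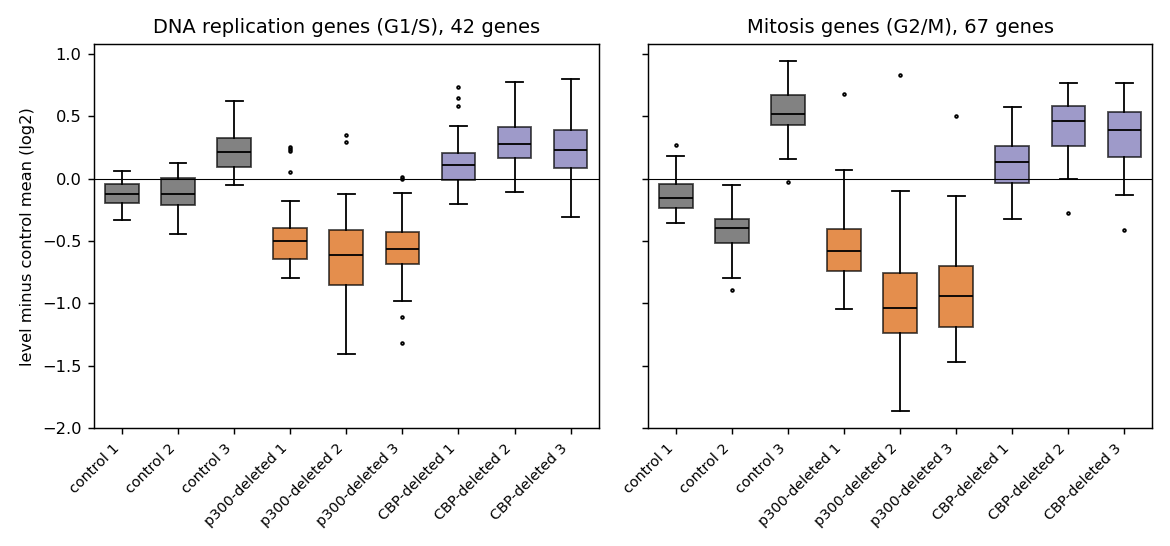
Level of each gene minus its control mean (y axis, log2) in each of the 9 arrays (x axis), for 42 replication genes (left) and 67 mitosis genes (right). Boxes span the quartiles over genes with the median as a line, whiskers reach 1.5 times the box height and dots are genes beyond; the medians of the p300-deleted arrays are the lowest in both panels, and control replicate 3 is the highest control.

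Regulators of the cycle moved in both directions. Of 22 cyclins, kinases and inhibitors, 3 rose and 2 fell. Btg2, an antiproliferative gene that is also an immediate early gene, read 9.17, 8.65 and 10.05 in controls and 10.29, 10.88 and 10.73 in p300-deleted cells (log2 fold change 1.34, SE 0.28, limma adjusted p = 0.0227); control replicate 3 lay nearest to the p300-deleted arrays. Its relative Btg1 rose by 0.45 (SE 0.10). Cdkn1b, the gene of the cyclin kinase inhibitor p27, read 8.70, 7.77 and 9.14 against 9.79, 10.15 and 9.69 (log2 fold change 1.34, SE 0.26, limma adjusted p = 0.0202), but the other of its 2 probe sets had the opposite sign. E2f8, a repressor induced in S phase (-1.04, SE 0.25), and Cdk2, the partner of cyclin E (-0.48, SE 0.10), fell. The rises numbered 0 without control replicate 1 or p300-deleted replicate 2 and 1 without p300-deleted replicate 1; the falls numbered 0 without any 1 of the p300-deleted replicates or CBP-deleted replicate 2, and 1 without CBP-deleted replicate 1 or 3; without control replicate 1 neither E2f8 nor Cdk2 passed.

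Few genes of the metabolic lists were called. Of 25 genes of glycolysis, 3 fell and 0 rose (median -0.16, against 2.04% of all genes that fell): Tpi1, triosephosphate isomerase, read 9.57, 9.67 and 9.71 against 9.21, 9.06 and 9.18 (-0.50, SE 0.08), Pkm, pyruvate kinase, fell by 0.37 and Ldha, lactate dehydrogenase, by 0.36. In each of these genes the p300-deleted arrays lay under all controls, as in every called gene that fell. Without p300-deleted replicate 2, 0 of the 3 passed, and without control replicate 1 it was 1. Of 19 cholesterol synthesis genes, 2 fell, Idi1 (-0.49, limma adjusted p = 0.0496) and Hmgcs1, which feeds the pathway (-0.43), and neither passed without p300-deleted replicate 1 or 2, control replicate 1 or 2, or any 1 of the CBP-deleted arrays. Of 59 subunits of oxidative phosphorylation, 35 ribosomal proteins and 35 proteasome subunits, 0 passed in either direction, with medians of -0.05, -0.02 and -0.06; Uqcrc1 of respiratory complex III (-0.29) and Rps6 of the small ribosomal subunit (0.31) were among the largest differences there.

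Genes of chromatin and of p300's own family differed little in level. Of 14 other acetyltransferases, 0 passed, and the largest difference was 0.28 for Ncoa1, a nuclear receptor coactivator (limma adjusted p = 0.178). Of 23 readers of acetyl-lysine and remodelling subunits 0 passed; Smarcc1, a core subunit of the BAF complex, was nearest (-0.38, limma adjusted p = 0.0524). Of 18 deacetylases and corepressors 1 fell, Sap30, a subunit of the Sin3 complex, from 7.22, 7.43 and 7.37 to 6.67, 6.89 and 6.99 (-0.49, SE 0.12). Among 24 Polycomb and Trithorax genes, Cbx7, which binds methylated histone H3, read 5.24, 4.08 and 5.46 in controls and 3.73, 3.60 and 3.86 in p300-deleted cells (log2 fold change -1.20, SE 0.29, limma adjusted p = 0.0423). The readings of Cbx7 were all under the background level in both of these groups. Its fall did not pass with the mean of all probe sets, nor without less specific probe sets. The p300-deleted readings were lower than those of CBP-deleted cells (difference -2.15, SE 0.29, limma adjusted p = 0.00235). Bmi1, of the same complex family, rose by 0.72 (SE 0.15). Of 25 genes of the CREB family and its targets, which recruit p300 and CBP, 2 rose (Penk, below, and Creb3l2, 0.47) and 1 fell, the clock gene Per2 (-0.48, SE 0.12), read under the background level in all arrays.

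Genes of T cell states moved in smaller numbers. Of the 32 measured genes of the Treg signature, 4 rose and 3 fell, against 2.02% and 2.04% of all genes, with a median of 0.05. Il10, an inhibitory cytokine, read 6.35, 6.24 and 6.88 in controls and 7.42, 7.40 and 7.35 in p300-deleted cells (log2 fold change 0.90, SE 0.16, limma adjusted p = 0.0118), with p300-deleted arrays close to each other and above all controls. With CBP deleted Il10 rose by 0.98 (limma adjusted p = 0.00898), and a difference between the deletions was not shown (-0.08, limma adjusted p = 0.849). Izumo1r, folate receptor 4, a surface protein of Treg cells, read 10.77, 10.91 and 10.62 against 11.45, 11.41 and 11.24 (0.60, SE 0.10), and Rgs1, a regulator of G protein signals, 11.37, 11.52 and 11.25 against 11.90, 12.15 and 11.92 (0.61, SE 0.09). The 4th gene that rose was Ebi3, a subunit of the cytokine IL-35 (0.52, limma adjusted p = 0.0396). Besides Foxp3, Klrg1, a receptor of terminally differentiated Treg cells, and Tnfrsf1b, TNF receptor 2, fell. Tnfrsf1b read 9.54, 9.57 and 9.91 against 9.10, 9.03 and 9.33 (-0.52, SE 0.11). Of the 4 rises 1 passed without p300-deleted replicate 2; of the falls 1 passed without that array and 6 without control replicate 2. Among 40 transcription factors of Treg cells and their partners only Foxp3 fell and only Xbp1 rose, a factor that also belongs to the plasma cell list (below); the median was 0.02, and 1 of 40 each way is near the shares of all genes.

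Part of the genes of effector and tissue Treg cells fell. Of 35 measured, 9 fell and 1 rose (Il10), against 2.04% and 2.02% of all genes, and 26 had a lower mean, against 6825 of 12393 (median -0.34). Emp1, a tetraspan membrane protein, read 5.83, 6.40 and 6.62 in the controls and 4.95, 3.96 and 5.07 in p300-deleted cells, where all arrays were under the background level (log2 fold change -1.63, SE 0.27, limma adjusted p = 0.00960). Klrg1 read 8.96, 8.86 and 9.72 against 8.39, 8.22 and 7.51 (log2 fold change -1.14, SE 0.24, limma adjusted p = 0.0265), with control replicate 3 highest and p300-deleted replicate 3 lowest. The calcium-binding proteins S100a4 and S100a6, which mark antigen-experienced T cells, read 11.33, 11.26 and 11.69 against 10.92, 10.43 and 10.56 and 10.51, 10.24 and 10.77 against 9.94, 9.38 and 9.49 (-0.79 and -0.90). Lgals1, galectin-1, an abundant transcript, fell from 12.17, 11.92 and 12.63 to 11.65, 11.32 and 11.53 (-0.74, SE 0.16), and Ccl5, a chemokine, by 0.57 (limma adjusted p = 0.0496). The groups did not overlap for any of these genes, as for every called gene. Cd44, Crip1 and S100a10 also passed, at -0.70, -0.66 and -0.47. The count was 2 without p300-deleted replicate 2 and 5 without p300-deleted replicate 3. Control replicate 3 had the highest mean of this list (8.80, against 8.44 and 8.33 in the other controls), as it had for the division genes. Against CBP-deleted cells 1 of the 35 was lower and 0 higher, namely Anxa2, a membrane-binding annexin chosen after its values were seen (-0.95, limma adjusted p = 0.0315); a difference between the deletions was not shown for the rest.

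Several surface molecules of T cells rose. Of 32 genes of the T cell receptor complex and its signalling, 4 rose and 0 fell, with a median of 0.00. Cd4 itself read 9.50, 8.96 and 9.35 in controls and 9.90, 10.11 and 9.79 in p300-deleted cells (log2 fold change 0.66, SE 0.13, limma adjusted p = 0.0214), and its groups did not overlap. Cd2, an adhesion receptor, read 11.09, 10.95 and 11.07 against 11.47, 11.57 and 11.52 (log2 fold change 0.48, SE 0.07, limma adjusted p = 0.00712), with a spread within groups under the gap between them. Cd27, a costimulatory receptor of naive and memory T cells, rose by 0.58 (SE 0.09) and Cd3g by 0.28 (SE 0.06). The count was 2 without p300-deleted replicate 1 and 1 without p300-deleted replicate 2. Of 29 inhibitory and costimulatory receptors 3 rose and 0 fell: Cd27, Cd86, a ligand of CTLA-4 more usual on antigen-presenting cells (6.80, 7.14 and 6.85 against 7.73, 7.75 and 7.53, 0.74), and Cd200 (0.55). The count was 0 without p300-deleted replicate 2 and 5 without control replicate 3. Among 30 homing receptors, Chst2, a sulfotransferase for selectin ligands, fell from 6.83, 7.25 and 6.69 to 5.57, 5.46 and 5.85 (log2 fold change -1.30, SE 0.15, limma adjusted p = 0.00221), S1pr4, a receptor for sphingosine phosphate, fell by 0.49, and Ptger2, a prostaglandin E2 receptor, rose by 0.74.

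Of 16 genes of follicular helper T cells, 5 rose and 0 fell, although the median was 0.13. Penk, the precursor of enkephalins, read 8.28, 8.54 and 8.36 in the controls and 9.38, 9.90 and 9.56 in the p300-deleted samples (log2 fold change 1.22, SE 0.14, limma adjusted p = 0.00190), a gap wider than the range of either group. Il21, the cytokine by which follicular helper cells act on B cells, read 4.71, 5.30 and 4.72 against 5.69, 6.06 and 5.75 (log2 fold change 0.92, SE 0.17, limma adjusted p = 0.0146); its control readings were under the background level. Sostdc1, a BMP and Wnt antagonist, read 4.04, 3.37 and 3.30 against 4.48, 4.75 and 4.57, under the background level in both groups (1.03). Gpm6b rose by 0.83. Il21 and Gpm6b also rose with CBP deleted (1.29 and 0.56, limma adjusted p = 0.00286 and 0.0344). A difference between the deletions was not shown for these genes (-0.37 and 0.27, limma adjusted p = 0.273 and 0.302). Tested against the CBP-deleted arrays, Penk was 1.22 above control here but lower than with CBP deleted (difference -0.59, SE 0.14, limma adjusted p = 0.0297), and so was Sostdc1 (-0.97, limma adjusted p = 0.0184). The count was 2 without p300-deleted replicate 2 and 3 without control replicate 1. Lists of Th2 genes (14), Th17 genes (10) and TGF-beta and SMAD genes (20) had 0 calls in either direction, and among 15 Th1 genes Ccl5 alone fell.

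**Figure D3:**
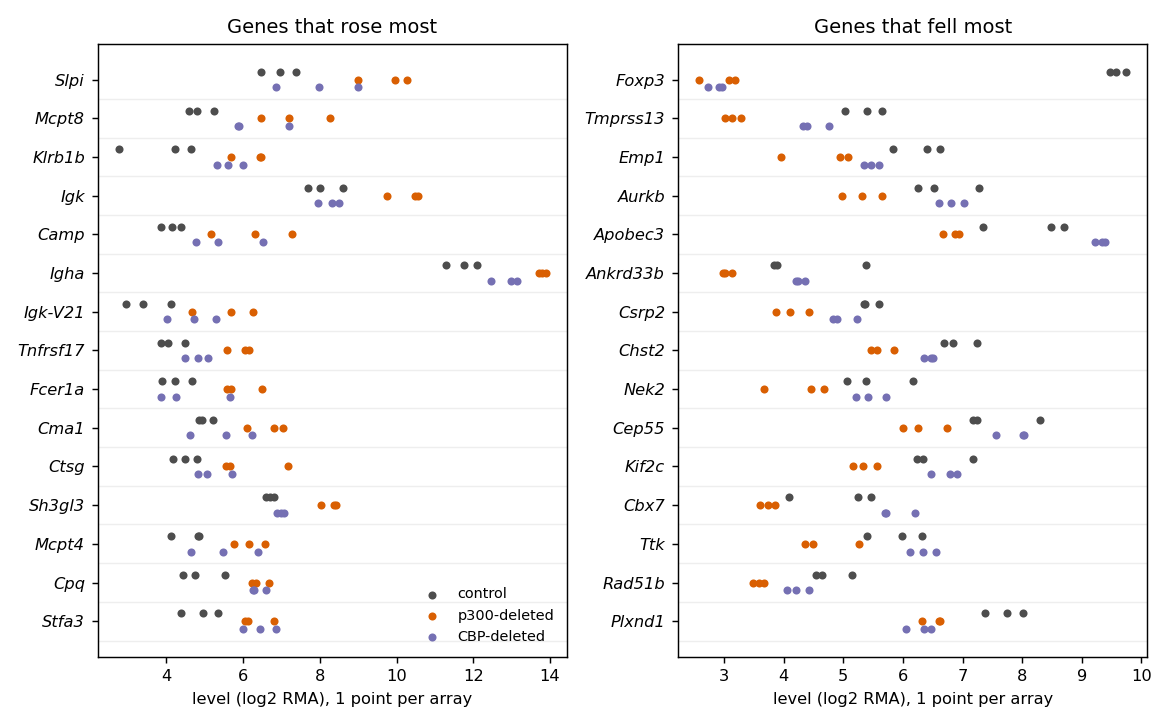
Levels (x axis, log2 RMA) of the 15 genes that rose most (left) and the 15 that fell most (right) against control, with 1 point per array and colours for control, p300-deleted and CBP-deleted samples. Control and p300-deleted points do not overlap in any row, as for every called gene. Slpi, Mcpt8, Klrb1b and Igk head the genes that rose, and Foxp3 sits near 3 in both deletions.

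Response genes were compared next. Of 27 type I interferon genes, 26 had a higher mean, against 44.9% of all genes (median 0.26), and 2 rose, against 2.02%. The median of this list was 0.38 for CBP-deleted cells against the same controls, and 0 of the 27 differed between the deletions in either direction. Oasl2, an antiviral protein, read 5.64, 4.99 and 4.63 against 5.74, 6.15 and 6.64 (log2 fold change 1.09, SE 0.25, limma adjusted p = 0.0365), and Ifit3 7.20, 6.65 and 6.60 against 7.31, 7.76 and 8.10 (0.90, SE 0.20). In each, control replicate 1 and p300-deleted replicate 1 lay close together. The count was 0 without control replicate 2, p300-deleted replicate 2 or 3, or CBP-deleted replicate 2, and 1 without control replicate 3 or CBP-deleted replicate 1 or 3. Among 11 GTPases induced by interferon gamma, Iigp1 (8.67, 8.48 and 8.41 against 9.30, 9.43 and 9.63, 0.93) and Gbp6 (0.66) rose while Gbp2b fell (6.18, 6.45 and 5.72 against 5.27, 4.92 and 5.48, -0.89). With CBP deleted Gbp2b fell by 1.43 (limma adjusted p = 0.00311), and a difference between the deletions was not shown (0.54, limma adjusted p = 0.138). Of 29 immediate early genes, Btg2 and Jun, a subunit of AP-1, rose. Jun read 11.22, 11.17 and 11.76 in controls and 12.39, 12.29 and 12.44 in p300-deleted cells (log2 fold change 0.99, SE 0.14, limma adjusted p = 0.00649), with both of its probe sets higher. Tested directly, 13 of the 29 were higher in p300-deleted than in CBP-deleted cells and 0 lower (against 2.01% of all genes that were higher), with a median difference of 0.49; the median of this list was 0.09 for p300-deleted and -0.30 for CBP-deleted cells, each against control. Jun differed by 0.92 (SE 0.14). Of 24 genes of the NF-kappaB pathway, Lta, lymphotoxin alpha, rose (8.33, 8.40 and 8.31 against 8.79, 9.12 and 8.93, 0.60) and Relb fell (-0.39, SE 0.09), and 6 were higher than in CBP-deleted cells, whose median against control was -0.31 for this list (-0.04 in p300-deleted cells). Fas, the death receptor, rose by 0.58 and was the only one of 23 survival genes to pass; Sesn1, a stress-induced p53 target, fell by 0.58.

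Outside the lists, or at their head, further single genes stood out. Tmprss13, a membrane serine protease, read 5.40, 5.03 and 5.64 in the controls and 3.13, 3.28 and 3.01 in the p300-deleted samples (log2 fold change -2.22, SE 0.17, limma adjusted p = 9.13e-05); every p300-deleted reading was under the background level, as were 2 of the control readings. It was also lower than in CBP-deleted cells (-1.35, limma adjusted p = 0.00169). Sh3gl3, an endophilin of membrane trafficking, read 6.82, 6.69 and 6.60 against 8.42, 8.38 and 8.04, a gap wider than the range of either group (log2 fold change 1.57, SE 0.12, limma adjusted p = 9.13e-05), and 6.98, 6.88 and 7.07 in the CBP-deleted samples. Apobec3, a cytidine deaminase that restricts retroviruses, read 8.71, 7.34 and 8.48 against 6.88, 6.67 and 6.94, with control replicate 2 nearest to the p300-deleted arrays (log2 fold change -1.34, SE 0.26, limma adjusted p = 0.0202), and 9.23, 9.33 and 9.39 with CBP deleted (p300-deleted minus CBP-deleted -2.49, limma adjusted p = 0.00108). Plxnd1, a semaphorin receptor, fell from 7.74, 7.38 and 8.02 to 6.63, 6.32 and 6.61 (log2 fold change -1.20, SE 0.17, limma adjusted p = 0.00597) and read 6.47, 6.35 and 6.06 in CBP-deleted samples (p300-deleted minus CBP-deleted 0.23, SE 0.17, limma adjusted p = 0.525). Csrp2, a LIM protein (-1.31, SE 0.16), Rad51b, a recombination factor (-1.20, SE 0.16, with 1 of its 2 probe sets of that sign), and Ankrd33b (-1.33, SE 0.31) fell. For Csrp2, Rad51b and Ankrd33b the control means (5.44, 4.77 and 4.37) as well as the p300-deleted means were under the background level. Cpq, a carboxypeptidase, rose by 1.51 (SE 0.24), on 1 of 2 probe sets and from control readings under the background level. With CBP deleted Cpq rose by 1.49 (limma adjusted p = 0.00847), and a difference between the deletions was not shown (0.03, limma adjusted p = 0.970).

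**Figure D4:**
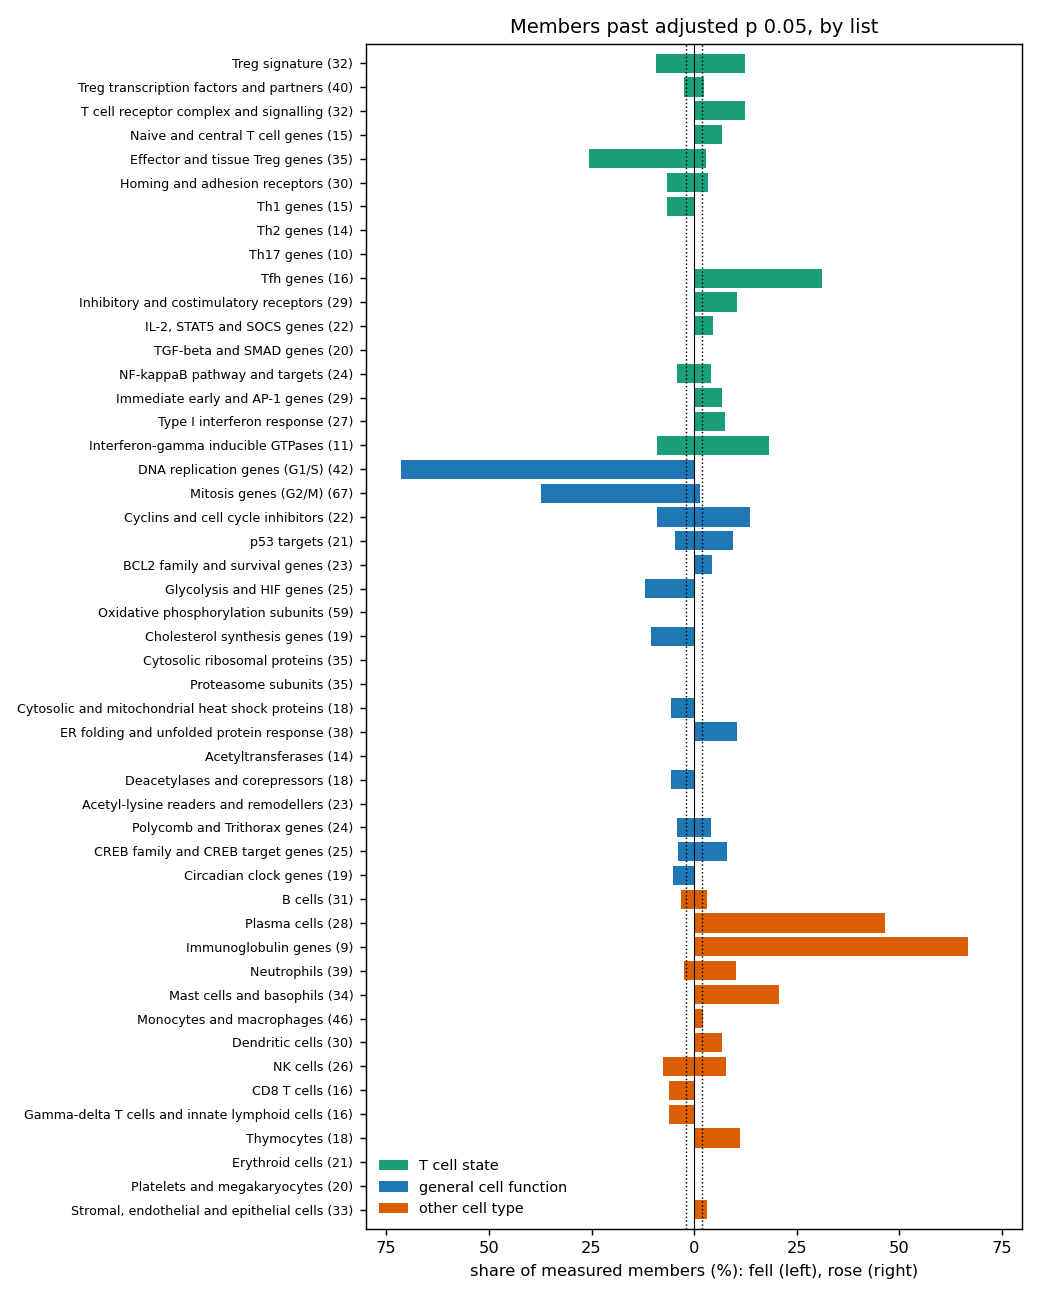
Share of the measured members of each list (x axis, %) that passed a limma adjusted p of 0.05, with genes that fell to the left and genes that rose to the right; the number of measured members stands in brackets, and dotted lines mark the shares over all genes. Replication and mitosis genes extend furthest to the left and immunoglobulin and plasma cell genes furthest to the right.

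Transcripts of antibody-secreting cells formed the main group that rose. Plasma cells are the end stage of B cells and devote much of their RNA to immunoglobulin, which a T cell does not make. Of 28 measured plasma cell genes, 13 rose and 0 fell (median 0.54), and of 9 immunoglobulin genes 6 rose and 0 fell (median 1.03). Several genes stand in both lists. Their summed linear level rose from 14427 to 17573 in controls to 32351 to 37480 in p300-deleted arrays for the plasma cell list, and the CBP-deleted arrays held 17574 to 22787. All 4 measured defining markers passed. Tnfrsf17, the survival receptor BCMA, read 4.05, 4.50 and 3.87 in the controls and 6.17, 5.57 and 6.05 in p300-deleted samples (log2 fold change 1.79, SE 0.21, limma adjusted p = 0.00211). Its control readings were all under the background level. Jchain, which joins IgA and IgM into polymers, read 11.56, 12.12 and 11.94 against 13.04, 12.93 and 12.74, a high level in every array of both groups (log2 fold change 1.03, SE 0.16, limma adjusted p = 0.00819). Derl3, which exports misfolded proteins from the endoplasmic reticulum, read 6.37, 6.47 and 6.19 against 8.17, 7.23 and 7.39 (1.26), and Sdc1, the plasma cell marker CD138, 5.63, 6.05 and 5.79 against 7.07, 6.21 and 6.57 (0.80, limma adjusted p = 0.0474). The count was 7, 8 and 7 without control replicate 1, p300-deleted replicate 1 or p300-deleted replicate 2.

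Among immunoglobulins, Igha, the heavy chain of IgA, read 11.28, 11.75 and 12.11 in controls and 13.90, 13.72 and 13.80 in p300-deleted samples (log2 fold change 2.09, SE 0.19, limma adjusted p = 0.000480). The p300-deleted values lay close to the highest reading on those arrays (14.05 to 14.08), where a change may be understated, and the CBP-deleted arrays stood between (12.47, 12.99 and 13.13). Igk, of the kappa light chain, read 7.69, 8.01 and 8.61 against 10.57, 9.75 and 10.48, with 4 of 4 probe sets higher (log2 fold change 2.17, SE 0.25, limma adjusted p = 0.00190), and 8.32, 7.96 and 8.49 with CBP deleted. Ighm, the heavy chain of IgM, was near the top of the scale in all arrays and read 13.62, 13.73 and 13.72 against 14.06, 13.99 and 14.02 (0.33). All 11 of its probe sets were higher, by 0.09 to 3.72, and the change read by the brightest one may be understated. Why its probe sets differ was not tested. Of the 6 that rose, 3 passed without p300-deleted replicate 2. Of 38 genes of folding in the endoplasmic reticulum and the unfolded protein response, which secreting cells use most, 4 rose and 0 fell (against 2.02% of all genes that rose), 31 had a higher mean and the median was 0.24. They were Xbp1, the factor that drives this response (10.55, 10.40 and 10.52 against 11.42, 10.92 and 11.31, 0.73), Pdia4 (0.85, on 1 of 2 probe sets), Ssr3 (0.79) and Creld2 (0.62), of which Xbp1 and Creld2 are also in the plasma cell list. This count was 1 without control replicate 1 or p300-deleted replicate 1 or 2, 7 without control replicate 3 and 2 without CBP-deleted replicate 2. The 31 genes of the B cell list were mostly lower: 1 rose (Ighm), 1 fell, 22 had a lower mean and the median was -0.11. Their summed level, to which Ighm adds, was nonetheless higher in every p300-deleted array (18929 to 20998 in controls, 21230 to 24693 in p300-deleted samples), while that of the 4 defining markers overlapped (535 to 653 and 418 to 583). Cd79a (-0.22), Cd79b (-0.26), Ms4a1, the gene of CD20 (-0.42), and Pax5 (-0.01) had lower means with overlapping arrays, and none of the 4 passed. Spib, a transcription factor of B cells, fell from 6.73, 6.73 and 6.71 to 6.12, 5.50 and 5.62 (-0.97).

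With the mean level of the defining plasma cell markers as a covariate, 1 gene passed in place of 503, Foxp3. Those marker levels do not overlap between the groups (6.90 to 7.29 and 7.99 to 8.61), so the covariate and the deletion cannot be told apart here.

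Genes of mast cells and basophils also rose. These cells carry the IgE receptor on their surface and store proteases in granules. Of 34 measured, 7 rose and 0 fell (median 0.23), although only 13 of the 34 were above the background level. Mcpt8, a protease of basophils, read 4.79, 4.59 and 5.25 in the controls and 8.27, 7.21 and 6.47 in the p300-deleted samples (log2 fold change 2.44, SE 0.42, limma adjusted p = 0.0112), with the controls all under the background level. Fcer1a, the IgE-binding chain of the receptor, read 4.23, 4.68 and 3.88 against 6.50, 5.59 and 5.69 (1.66, SE 0.40), and Cpa3, a granule carboxypeptidase, 5.96, 6.27 and 5.91 against 7.37, 6.59 and 7.33 (1.05, SE 0.25). The mast cell chymases Cma1 and Mcpt4 rose by 1.65 and 1.56, and Prg2, a granule protein of eosinophils that the plasma cell list also holds, by 1.20. Ms4a2, another chain of the IgE receptor, stayed under the background level in both groups (3.18, 3.77 and 3.17 against 3.61, 2.97 and 2.89), and Kit, the receptor that mast cells need, overlapped (5.03, 4.67 and 5.38 against 5.40, 5.08 and 4.90). The summed level of the 5 defining markers was 150 to 166 in controls, 334 to 620 in p300-deleted arrays and 158 to 333 in CBP-deleted ones. That of the whole list overlapped, at 1464 to 1873 in controls and 1718 to 2525 in p300-deleted arrays. The count was 1, 2 and 1 without control replicate 1, control replicate 3 or p300-deleted replicate 1, and 3, 1 and 2 without p300-deleted replicate 2, p300-deleted replicate 3 or CBP-deleted replicate 1.

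Of 39 neutrophil genes, 4 rose and 1 fell, and 33 had a higher mean. Slpi, a protease inhibitor of leukocytes and mucosa, read 6.48, 7.38 and 6.96 in controls and 9.96, 9.0 and 10.28 in p300-deleted samples (log2 fold change 2.81, SE 0.46, limma adjusted p = 0.00918), a rise that all 3 arrays showed. Camp, the cathelicidin of neutrophil granules, read 4.15, 3.85 and 4.37 against 7.27, 5.16 and 6.32 (log2 fold change 2.13, SE 0.48, limma adjusted p = 0.0335), Ctsg, a granule protease, 4.17, 4.48 and 4.80 against 7.17, 5.57 and 5.65 (1.64), and Stfa3, a cystatin, 4.96, 5.36 and 4.38 against 6.05, 6.82 and 6.12 (1.43). The controls of Camp, Ctsg and Stfa3 were under the background level. With CBP deleted Stfa3 rose by 1.53 (limma adjusted p = 0.0144), and a difference between the deletions was not shown (-0.10, limma adjusted p = 0.899). S100a8, an abundant calcium-binding protein of neutrophils, was higher in each p300-deleted array (6.98, 4.92 and 6.99 against 10.08, 7.69 and 8.77) but too variable to pass (2.55, SE 0.87, limma adjusted p = 0.132), as was S100a9 (2.42). p300-deleted replicate 1 was the highest of its group for S100a8, S100a9, Camp, Ctsg and Mpo, and also for Mcpt8 and Fcer1a. The summed level of the 8 defining markers was 195 to 392 in controls and 554 to 2648 in p300-deleted arrays, and 1 CBP-deleted array exceeded all of these at 4163. Pglyrp1, which activated Treg cells express as well, fell (-0.59). The count of rises was 1 and 2 without control replicate 1 or 2 and 2 without p300-deleted replicate 1 or 2.

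**Figure D5:**
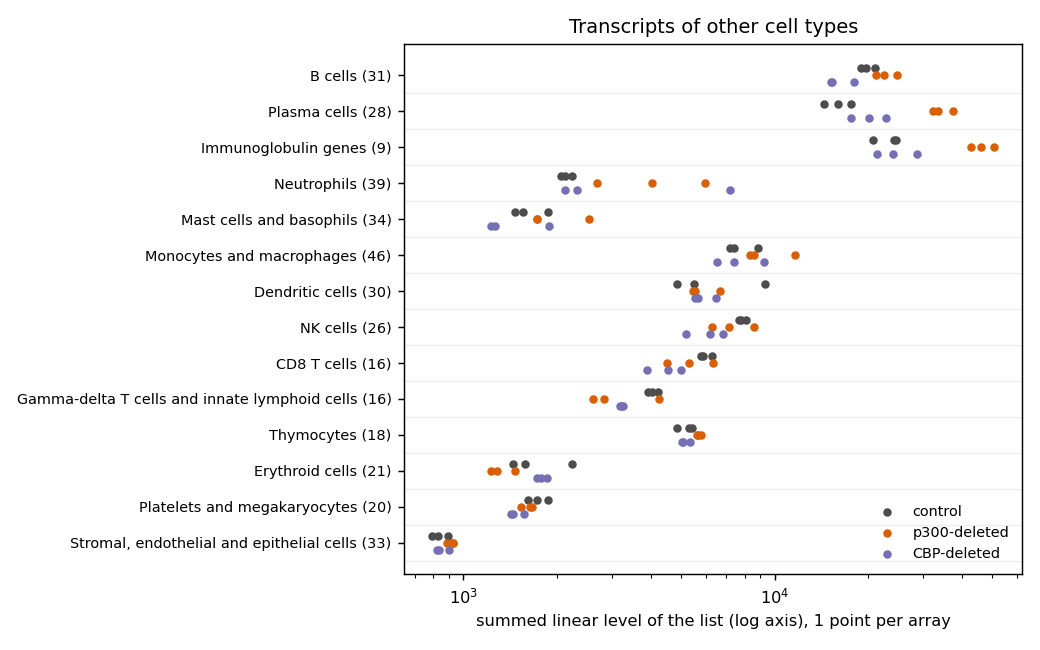
Summed linear level of the measured genes of each list of other cell types (x axis, log scale), with 1 point per array and the number of genes in brackets. The p300-deleted points lie above all control points for plasma cells, immunoglobulin genes, neutrophils, B cells and thymocytes (the last by a narrow margin, as for B cells) and overlap them for the other 9 lists.

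Fewer genes passed in the lists of the other cell types that a CD4+CD25+ fraction can hold. Among 46 genes of monocytes and macrophages, 37 had a higher mean (median 0.34) and 1 rose, Spic, a factor of red pulp macrophages, from 3.50, 3.77 and 4.09 to 5.53, 4.76 and 4.30, under the background level; the count was 6 without control replicate 3, 3 without p300-deleted replicate 3 and 0 without any 1 of the other arrays. The defining markers Csf1r (5.78, 5.41 and 6.87 against 8.58, 6.90 and 6.66) and C1qa (4.28, 4.31 and 5.10 against 7.25, 5.45 and 4.88) were highest in p300-deleted replicate 1, and none of the 4 measured passed, although their median difference was 1.29 and their summed level was 119 to 333 in controls and 288 to 937 in p300-deleted arrays. Of 26 NK cell genes, Klrb1b, an inhibitory lectin receptor, rose from 4.22, 2.77 and 4.65 to 6.44, 6.47 and 5.70 (log2 fold change 2.32, SE 0.39, limma adjusted p = 0.0103), with control replicate 2 the lowest array, and Ncr1, the receptor NKp46, from 5.34, 5.30 and 5.67 to 7.56, 7.21 and 5.83 (1.43, limma adjusted p = 0.0425). The control readings of Klrb1b were under the background level, and its 4 probe sets, all higher, ran from 0.23 to 2.32. Klrb1b also rose with CBP deleted (1.76, limma adjusted p = 0.0295). A difference between the deletions was not shown for it (0.56, limma adjusted p = 0.505). Klra17, of the Ly49 family, and Ccl5 fell, and of the 4 defining markers only Ncr1 passed; Klrd1 and Prf1 overlapped between the groups (0.36 and -0.02). In the lists of CD8 T cells and of gamma-delta T cells and innate lymphoid cells, with 16 genes each, 0 rose and 1 each fell, Ccl5 and Klrg1. Of 30 dendritic cell genes Cd86 and Dpp4 (0.67), both also made by T cells, rose. Of 18 thymocyte genes Cd4 and Cd1d1 (0.38) rose, whereas Rag1, Rag2 and Ptcra stayed under the background level. Of 21 erythroid genes and 20 genes of platelets 0 passed, and of 33 genes of stroma, endothelium and epithelium Epcam alone rose (0.56). Whether cells of these types or of the plasma cell, mast cell and neutrophil lists contribute to changes outside their lists was not tested.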

How the data were processed

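The deposited values are log2 levels per probe set and array, summarised with RMA per the submitters' processing notes, which state no version or settings; they were used as deposited. Of 22690 probe sets, 64 controls were set aside; 20380 had 1 gene symbol, 691 several and 1555 none here. Symbols were set against RefSeq (GRCm38.p6; 24 identifiers unmatched, 0 symbols changed), and the probe set with the highest mean over 9 arrays stood for a gene. Groups were compared with limma 3.58.1 (R 4.3.3): 1 mean per group, all 9 arrays, 6 residual degrees of freedom, variance trend, two-sided, Benjamini-Hochberg over 12393 genes at 0.05. With 3 arrays per group the precision is limited by their number.

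Members and gene lists were chosen with earlier results of these data known. Named are Foxp3, Crebbp, the 15 genes that rose and the 15 that fell most (predicted genes, clones and immunoglobulin variable segments left out), up to 6 called members per list (or 3 given as values) and all defining markers; others (Smc4, Pcna, Rfc3, Rrm1, Tk1, Rpa2, Anxa2, the Mcm genes, Ebi3, Cd44, Crip1, S100a10) were chosen after their values were seen. No block was used, since no label says that replicate numbers pair the samples. Deviations of same-numbered replicates correlated at -0.07, 0.10 and -0.12. In 10 simulated sets with 200 changed genes, 53.0%, 98.1% and 100% were recovered at log2 changes of 0.5, 1 and 2, and 5.11% of calls were false. Each gene was drawn independently there, without shifts that the genes of an array share. These shares therefore do not give the false or missed share among the calls reported here. Other settings (the arrays fitted, weights, a replicate block, the variance trend, scaling, a filter on dim genes, the choice of probe set, a fold minimum, marker and 18S covariates, each array left out) are compared in the closing section. No filter on dim genes was applied in the values reported.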

Additional observations from a re-analysis of the deposited data

How the results depend on the processing

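The 503 calls (250 higher, 253 lower) became 165 (99 and 66) with only the 6 arrays of the comparison, 1028 (468 and 560) with array weights, 244 (94 and 150) when 18S was added as a covariate and 254 (130 and 124) with a change of at least 1.5-fold. Marker covariates left 1 (0 and 1) for plasma cells, 53 (17 and 36) for neutrophils and 7 (3 and 4) for mast cells and basophils. As for plasma cells, the mean marker levels did not overlap between control and p300-deleted arrays. They were 4.52 to 5.25 and 5.57 to 7.53 for neutrophils, and 4.64 to 4.80 and 5.46 to 6.23 for mast cells and basophils. These covariates and the deletion therefore cannot be told apart, and the lost calls do not show where a change arose. The replicate number as a block gave 326 (160 and 166). Leaving out 1 array gave 65 to 854 in all, 43 to 373 higher and 22 to 481 lower. A total of 2304 genes had an unadjusted p under 0.05. Among the 104 called genes that the naming rule takes, 79 were no longer called after 1 array or another was left out, and 103 under at least 1 other setting; 1, Foxp3, was called throughout. Signs turned only with the plasma cell covariate, for Camp (-0.58), Fcer1a (-0.87), Ctsg (-0.76), Creld2 (-0.27), Derl3 (-0.025), Prg2 (-0.35), Cpa3 (-0.40) and Sdc1 (-0.57), whose standard errors there were 0.27 to 0.93. The cause was not tested. Derl3 and Sdc1 are themselves among the markers averaged into that covariate, so their values under it are not independent of it. Within 1.5 times of 503 were the totals without the variance trend (407), with robust estimation (490), with array medians subtracted (494) or quantile normalization (541), without dim genes (576), with the mean of all probe sets (356), with every probe set (592) and without less specific probe sets (450). Replication genes that fell numbered 17 with the mean of all probe sets. Signal near background limits the folds of most mast cell, neutrophil and stromal markers.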

Other observations

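Lists written after the called genes had been read, and so given as description only, held further genes that fell. Of 25 genes of homologous recombination and the replication checkpoint, 10 fell and 0 rose (median -0.30), among them the checkpoint kinase Chek1 (-0.94). Of 26 genes of one-carbon metabolism and nucleotide synthesis, 11 fell and 0 rose (median -0.33): Phgdh, the first enzyme of serine synthesis, read 10.38, 10.51 and 10.53 in controls and 10.02, 10.06 and 10.12 in p300-deleted cells (-0.41), Mthfd2, of mitochondrial folate metabolism, 8.37, 8.71 and 8.72 against 8.08, 8.01 and 8.24 (-0.49), and Cad, which starts pyrimidine synthesis, 8.53, 8.50 and 8.27 against 7.94, 7.89 and 8.0 (-0.49). Arrays of these 3 genes did not overlap between the groups, as for every called gene. Of 32 nucleolar and ribosome assembly factors, 8 fell and 0 rose (median -0.22), with Nop56, a core protein of box C/D particles, at -0.30. Among 18 aminoacyl-tRNA synthetases 2 fell, and among 35 genes of autophagy and the lysosome 2 rose and 3 fell (median -0.02). Directly against CBP-deleted cells, 11 of the 25 recombination genes, 12 of the 26 nucleotide synthesis genes and 9 of the 32 nucleolar genes were lower, against 3.2% of all genes, and 0 were higher; these lists were written with the called genes known.

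Some genes known from plasma cells but absent from the lists rose too, again chosen after their values were seen. Ckap4, a protein of the endoplasmic reticulum, read 6.03, 6.32 and 6.19 in controls and 7.68, 7.03 and 7.33 in p300-deleted samples, with 4 of 4 probe sets higher (1.17, SE 0.20). Ell2, an elongation factor that favours secreted immunoglobulin mRNA, read 5.87, 6.39 and 6.34 against 7.20, 6.99 and 7.04 (0.87, SE 0.17). Bhlha15, a factor of secretory cells, rose by 0.60, under the background level and on 1 of 2 probe sets.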
